A study of Mus musculus with 9 samples.

Results

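The genes described here encode the constitutive proteasome, the large protease that degrades proteins tagged with ubiquitin. Members were the protein-coding genes whose symbol starts with Psma, Psmb, Psmc, Psmd, Psme, Psmf or Psmg followed by a number, without the immunoproteasome genes Psmb8, Psmb9 and Psmb10. This gave 47 of the 54532 genes in the table, which held 22046 protein-coding genes. The core particle, named 20S, is a barrel of alpha and beta rings in which Psmb5, Psmb6 and Psmb7 carry the active sites. The regulatory particle, named 19S, caps the barrel with a base of ATPases that unfold the substrate and a lid that removes ubiquitin. Dedicated chaperones assemble both particles, and other activators can take the place of the cap. Cells raise these genes together through the transcription factor Nfe2l1 when proteasome activity falls short.

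RNA-seq was performed on liver of male C57BL/6 mice aged 5 to 7 weeks, with 3 libraries from 3 biological replicates in each of 3 groups. The NC group was the control. The APAP group received 500 mg/kg of acetaminophen (APAP), a drug that injures hepatocytes at high dose, into the peritoneum after an overnight fast, and its livers were taken at 6 h. The AMSC group received the same dose and, right after it, 200000 mesenchymal stem cells from the inguinal fat of C57BL/6 mice through the tail vein, and its livers were also taken at 6 h. No group received the cells alone, so the comparison of AMSC with APAP concerns the cells in animals given the drug. The title of NC replicate 3 carries day 4 of the month and the number 1, and the titles of the other 8 libraries carry day 7. Values were FPKM (reads per gene length and library size, here with a library size that followed the median-of-ratios size factor). In members such as Psmb5 (899 bases) and Psma3 (3894 bases) the gene length equalled all annotated exon bases. The RNA present may be shorter, so levels of different genes can be compared only roughly. Between 13418921 and 16210930 reads per library lay on genes, and the members that were tested had between 51 reads (Psmg3, APAP replicate 1) and 3510 reads (Psmb4, AMSC replicate 2).

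Of the 47 members, 44 averaged 1 FPKM or more across the 9 libraries and were tested among 9699 genes. They comprised all 14 core subunits, the 17 subunits of the base and lid that the symbol rule takes in, 7 assembly chaperones and 6 other activators and inhibitors. Psma8, the testis form of an alpha subunit, had 3 to 14 reads per library, and Psmb11, the beta subunit of the thymic cortex, had 0 to 1. Psmc3ip, which is named after Psmc3 but acts in meiotic recombination, had 2 to 10 reads. These 3 genes were below that level and were not tested at it. A gene was called at an adjusted p of at most 0.05 in limma (Benjamini-Hochberg over all genes tested), and fold changes are differences of log2(FPKM + 1), which understate the change of low genes.

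In livers given APAP, 1 of the 44 members was called higher than in NC and 4 were called lower, against 12.8% and 13.1% of all genes tested. Psmd11 was the member called higher, and Psma1, Psmg2, Psmd5 and Psmd14 were called lower. Liver tissue was sampled, so fewer cells of a type and less RNA per cell cannot be told apart. The median log2 fold change was −0.05 over the core and −0.06 over the 19S subunits, beside −0.00434 over all genes, and both medians changed sign when NC replicate 3 was left out (0.02 and 0.01). The groups did not overlap for 2 members that were higher and 8 that were lower, against 20.9% and 22.3% of all genes. The study asked for a doubling or halving (log2 of 1) besides the adjusted p, in DESeq2, which was not run here. Both thresholds applied to the limma fit of log2(FPKM + 1), which shrinks the changes of low genes, were passed by 0 members, against 7.90% of all genes, and applied to voom on the recovered reads also by 0, against 12.3%.

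The sum of FPKM differed between the groups, and rescaling each library to the same sum (TPM) put the median of all genes at −0.26 in APAP against NC, at 0.09 in AMSC against APAP and at −0.16 in AMSC against NC. With that scaling, 0 members were called higher and 20 lower in APAP against NC by limma, against 7.73% and 30.4% of all genes, and 20.3% of all calls were in the higher direction, against 49.4% with the deposited scaling. Relative to all genes, the core lay at −0.04 with the deposited scaling and at −0.09 with TPM, and the 19S subunits lay at −0.06 and −0.09. In AMSC against NC, TPM gave 1 member called higher and 7 lower, against 8.74% and 22.4% of all genes, with 28.0% of all calls in the higher direction in place of 54.2%.

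In AMSC against APAP, all 31 subunits of the core and the 19S particle had a positive log2 fold change, also with TPM, and 29 to 31 of them did under the other processing choices. The median was 0.22 over the core and 0.32 over the 19S subunits, beside 0.01 over all genes, and with TPM the core lay 0.22 and the 19S subunits 0.32 above the median of all genes. For 24 of the 44 members the AMSC libraries all lay above the APAP libraries, against 14.6% of all genes, and for 0 members they all lay below, against 12.4%. These 24 held 6 of the 14 core subunits and 14 of the 17 in the base and lid. Single genes mostly did not pass the test across all genes. With limma, 1 member, Psmd9, was called higher, against 1.64% of all genes, and 0 were called lower, against 2.14%. At an unadjusted p under 0.05, 17 members were higher and 0 were lower, against 10.6% and 10.3% of all genes, and voom on the recovered reads also called 1 higher and 0 lower, against 2.12% and 2.66%. The count of 17 at an unadjusted p under 0.05 became 6, 6, 7, 3 and 6 without APAP replicate 1, APAP replicate 2 and AMSC replicates 2, 3 and 4, against 7.21% to 10.5% of all genes over the fits without a library, and it stayed at 17 without APAP replicate 3. With the replicate number as a block the counts were 1 higher and 1 lower, against 5.75% and 7.93%, with TPM 26 and 0, against 15.4% and 7.11%, and with all genes above 0 they were 24 and 0, against 6.32% and 6.88%. Both thresholds of the study were passed by 0 members in the limma fit, against 1.96% of all genes, and by 0 with voom, against 3.05%.

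In AMSC against NC, 7 members were called higher and 0 lower with the deposited scaling, against 14.1% and 11.9% of all genes. Psmd11, Psmd4, Psmd9, Psmd8, Psmd3, Psmb4 and Psmc1 were the members called higher. All 7 calls were lost with the replicate number as a block, where 5.61% of all genes were called higher. At an unadjusted p under 0.05, limma gave 13 members higher and 4 lower, against 20.2% and 17.8% of all genes, and voom called 8 higher and 0 lower, against 15.1% and 12.8%. With TPM the counts at an unadjusted p under 0.05 were 4 higher and 10 lower, against 11.9% and 31.9% of all genes. With the deposited scaling they were 7 higher and 1 lower without NC replicate 1, against 17.47% and 14.43% of all genes. They were the same without NC replicate 2, against 17.03% and 15.28%. Without NC replicate 3 they were 17 higher and 0 lower, against 19.82% and 18.50%. Without AMSC replicates 2, 3 and 4 in turn, 9, 10 and 11 were higher and 4, 2 and 2 lower. The shares of all genes there were 17.40% to 20.09% and 15.46% to 17.50%. Quantile normalization gave 8 higher and 4 lower, against 17.8% and 21.9%, and the replicate number as a block 2 and 0, against 11.7% and 8.68%. The median was 0.18 over the core and 0.24 over the 19S subunits, and with TPM these became −0.02 and 0.03, which is 0.14 and 0.19 above the median of all genes. The groups did not overlap for 18 members that were higher, against 23.2% of all genes, and for 2 that were lower, Psmg1 and Psmg3, against 20.3%. Both thresholds of the study were passed by 0 members in the limma fit, against 6.01% of all genes, and by 0 with voom, against 9.98%. Without NC replicate 3, the library with the other day in its title, 9 members were called higher in AMSC against NC, against 12.8% of all genes, and 0 higher and 2 lower in APAP against NC, against 10.5% and 11.7%. The APAP and AMSC comparisons share the NC libraries, and both AMSC comparisons share the AMSC libraries.

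The summed FPKM of the 14 core genes was 598.8, 587.8 and 705.5 in NC replicates 1 to 3, 528.1, 590.6 and 674.1 in APAP replicates 1 to 3, and 752.0, 719.0 and 700.4 in AMSC replicates 2 to 4. The AMSC libraries all lay above the APAP libraries, and NC replicate 3 lay within the range of AMSC. With TPM the AMSC core sums stayed above APAP, NC replicate 3 lay above all AMSC libraries, and APAP lay below NC. The summed FPKM of the 17 base and lid genes was 500.8, 505.0 and 551.2 in NC, 479.3, 517.6 and 532.4 in APAP, and 610.9, 647.6 and 624.5 in AMSC. Here the AMSC libraries lay above all 6 others with the deposited scaling, and APAP and NC overlapped. With TPM the 19S sums were 1255, 1377 and 1372 in NC, 1045, 1045 and 1075 in APAP, and 1304, 1467 and 1412 in AMSC, so AMSC replicate 2 lay below NC replicates 2 and 3, and APAP lay below NC.

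**Figure D1:**
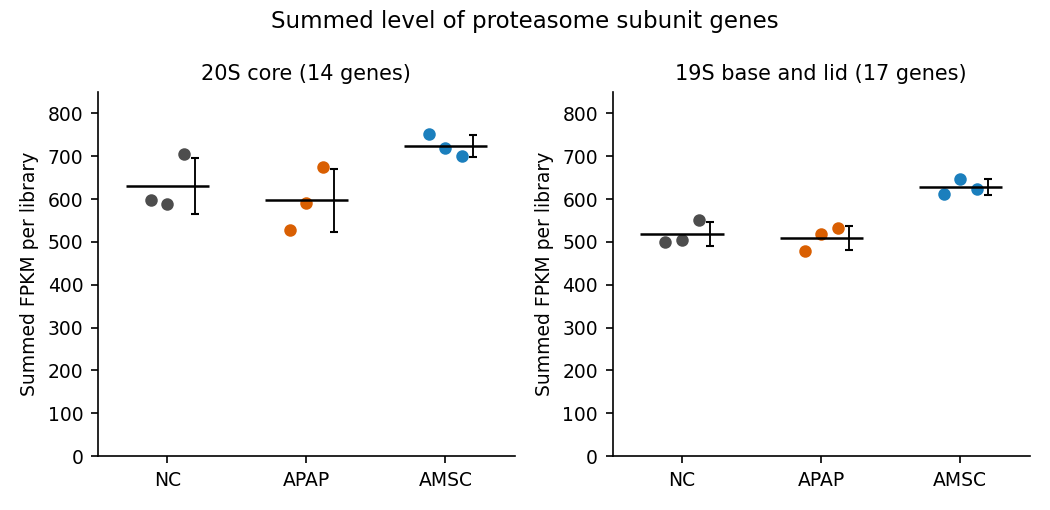
Summed FPKM of the 14 core genes (left) and the 17 base and lid genes (right) in each library of the NC, APAP and AMSC groups, with 1 point per library, the mean as a line and the SD (n = 3) as a bar. All AMSC libraries lay above all APAP libraries in both plots with the deposited scaling, and in the left plot NC replicate 3 (705.5) reached into the AMSC range.

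The beta ring carries the active sites. Psmb5, the chymotrypsin-like subunit, was at 88.5, 86.4 and 106 FPKM in NC, 65.9, 81.0 and 97.8 FPKM in APAP, and 107, 107 and 109 FPKM in AMSC. All AMSC libraries were above all others, and APAP spread over a wide range that overlapped NC. Each APAP library lay below the NC library of the same number, a pairing that the labels do not name and that is uncertain, above all for NC replicate 3. With that number as a block the limma adjusted p in APAP against NC was 0.214. The log2 fold change was −0.21 ± 0.17 (SE) in APAP against NC, 0.41 ± 0.16 in AMSC against APAP and 0.20 ± 0.11 in AMSC against NC, and the last was −0.01 with TPM. With the deposited scaling none of the 3 passed the test, with limma adjusted p of 0.412, 0.200 and 0.222. With TPM Psmb5 was called lower in APAP against NC (−0.52), as were 30.4% of all genes. Without APAP replicate 1 the values in APAP against NC and AMSC against APAP were −0.07 and 0.27, and without APAP replicate 3 they were −0.35 and 0.55. Psmb5 shares 109 exon bases (12.1%) with Mir686 on the same strand, to which 0 reads were assigned, so its level is uncertain.

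Psmb6, the caspase-like subunit, was at 57.6, 55.1 and 58.5 FPKM in NC, 44.3, 60.2 and 65.5 FPKM in APAP, and 64.9, 59.4 and 63.6 FPKM in AMSC. APAP replicate 1 was the lowest of all and APAP replicate 3 the highest, so APAP overlapped both other groups. Psmb7, the trypsin-like subunit, was at 22.3, 21.2 and 26.5 FPKM in NC, 19.4, 20.5 and 23.4 FPKM in APAP, and 25.0, 24.7 and 24.4 FPKM in AMSC. All AMSC libraries were above all APAP libraries, and NC replicate 3 was the highest. For Psmb7 too, each APAP library lay below the NC library of the same number (limma adjusted p of 0.304 with the block). The log2 fold changes of Psmb6 and Psmb7 in AMSC against APAP were 0.16 ± 0.16 and 0.22 ± 0.12 (SE), and neither was called in any comparison with the deposited scaling. TPM called Psmb7 lower in APAP against NC (−0.44), as it did 30.4% of all genes. Without APAP replicate 1, the value of Psmb6 in AMSC against APAP became −0.01. Psmb7 shares 405 exon bases, or 11.8% of its exons, with Nek6 on the opposite strand, and the strand setting of the library is not given in the sources used here, so its level is uncertain.

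The other beta subunits, Psmb1 to Psmb4, build the ring without an active site of their own. Psmb4 had the highest mean of the core, 94.8 FPKM, with 77.7, 79.0 and 98.2 FPKM in NC, 71.3, 91.2 and 98.5 FPKM in APAP, and 113, 109 and 115 FPKM in AMSC. AMSC lay above both other groups, and NC and APAP overlapped. It was called higher in AMSC against NC (log2 fold change 0.41 ± 0.12, limma adjusted p = 0.0394), a call that was lost when any library but NC replicate 3 was left out, with values between 0.35 and 0.51. The call was also lost with quantile normalization, with all genes above 0, with a single fit and with TPM (0.20). The log2 fold changes of the 4 genes ranged from −0.08 to 0.05 in APAP against NC, from 0.16 to 0.38 in AMSC against APAP and from 0.11 to 0.41 in AMSC against NC. Psmb3 also had all AMSC libraries above all others.

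The alpha ring forms the gate of the barrel, and Psma1 was the alpha gene called in APAP against NC with the deposited scaling. TPM also called Psma4 and Psma6 lower there, as it did 30.4% of all genes. Psma1 was at 30.6, 29.2 and 34.9 FPKM in NC, 20.2, 19.8 and 22.0 FPKM in APAP, and 26.2, 30.6 and 22.0 FPKM in AMSC. APAP lay below NC in all libraries, and AMSC spread between them, overlapping both. The log2 fold change in APAP against NC was −0.58 ± 0.12 (SE, limma adjusted p = 0.0116), and the call was kept when each of the 6 libraries was left out, with values from −0.64 to −0.51. In AMSC against NC its value was −0.26, the lowest of the core. It was called lower with TPM, as were 22.4% of all genes, and not with the deposited scaling. For the 7 alpha genes the log2 fold changes ranged from −0.58 to 0.09 in APAP against NC and from 0.12 to 0.32 in AMSC against APAP. Psma5 (32.7, 31.4 and 42.3 FPKM in NC, 34.7, 35.1 and 43.1 FPKM in APAP, 47.4, 48.6 and 45.3 FPKM in AMSC) was above both other groups in every AMSC library and had a limma adjusted p of 0.0505 in AMSC against NC, where voom called it higher. Levels within the core ran from 20.6 FPKM for Psma3 to 94.8 FPKM for Psmb4, a 4.60-fold range of means. These means depend on the gene length used, 3894 bases for Psma3 and 1951 for Psmb4.

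The 6 ATPases of the base, Psmc1 to Psmc6, unfold the substrate and feed it into the core. For all 6 the AMSC libraries lay above the APAP libraries, against 14.6% of all genes, with log2 fold changes from 0.24 to 0.42, and 0 of the 6 were called in that comparison by limma or by voom. Psmc1 had the highest mean of the base, with 56.3, 56.4 and 63.9 FPKM in NC, 58.0, 65.2 and 66.1 FPKM in APAP, and 73.8, 74.6 and 75.7 FPKM in AMSC. The AMSC libraries were closely spaced and above all others, and NC and APAP overlapped. Psmc1 was called higher in AMSC against NC (log2 fold change 0.34 ± 0.10, limma adjusted p = 0.0388), and leaving out any library but NC replicate 3 ended the call, with values from 0.31 to 0.40. The call was also lost with quantile normalization and with TPM (0.13). Psmc4 had the highest ATPase value in AMSC against APAP, and its mean was 41.3 ± 0.37 FPKM (SD, n = 3) in NC, 36.2 ± 3.51 FPKM in APAP and 49.1 ± 7.06 FPKM in AMSC. In APAP against NC the ATPases ranged from −0.27 to 0.10. TPM called Psmc2 to Psmc6 lower there, as it did 30.4% of all genes, with the median of all genes at −0.26. Psmc3 shares 215 exon bases (8.25%) with Slc39a13 on the opposite strand, so its level is uncertain.

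The base also holds Psmd1 and Psmd2, the scaffolds that bind ubiquitin-like domains, and Psmd4, a receptor for ubiquitin chains. Psmd4 was at 28.4, 30.3 and 33.7 FPKM in NC, 34.0, 36.4 and 39.2 FPKM in APAP, and 46.4, 44.2 and 43.2 FPKM in AMSC. The groups did not overlap, with NC lowest and AMSC highest. It was called in AMSC against NC (log2 fold change 0.52 ± 0.10, limma adjusted p = 0.00850), and the call was kept without each of the 6 libraries, at 0.47 to 0.59. With TPM the value was 0.32 and the call was lost. Psmd1 and Psmd2 were not called in any comparison with the deposited scaling. TPM called Psmd2 lower in APAP against NC, as it did 30.4% of all genes. Psmd2 was at 44.4 ± 2.48 FPKM (SD, n = 3) in NC, 37.9 ± 4.50 in APAP and 47.5 ± 4.44 in AMSC.

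The lid removes ubiquitin before degradation, and it held the 19S subunits with the largest rise and the largest fall in APAP against NC. Psmd11, which ties the lid to the base and the core, was at 10.8, 10.8 and 11.8 FPKM in NC, 14.1, 18.0 and 15.3 FPKM in APAP, and 18.6, 20.7 and 20.3 FPKM in AMSC. The 3 groups did not overlap, with NC lowest and AMSC highest. Its log2 fold change was 0.47 ± 0.13 (SE) in APAP against NC (limma adjusted p = 0.0313) and 0.78 ± 0.10 in AMSC against NC (adjusted p = 0.00112), the largest rise of any member in each. The value in APAP against NC was 0.18 with TPM, without a call. That call was also lost without any one of the NC replicates, APAP replicate 2 or APAP replicate 3, with values from 0.37 to 0.54. In AMSC against NC the call was kept without each library, at 0.76 to 0.83, and with TPM, at 0.59. It was lost there with the replicate number as a block (0.75, limma adjusted p = 0.0772). Psmd11 lies on chromosome 11, at chr11:80428615-80473248 (+ strand, GRCm38).

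Psmd14, the deubiquitinase of the lid, was at 14.6, 15.9 and 18.4 FPKM in NC, 12.5, 10.8 and 11.7 FPKM in APAP, and 14.3, 17.6 and 14.3 FPKM in AMSC. APAP lay below both other groups, and AMSC overlapped NC. It was called lower in APAP against NC (−0.44 ± 0.13, limma adjusted p = 0.0390), and the call was lost without any one of the NC replicates, APAP replicate 2 or APAP replicate 3, with values from −0.51 to −0.36. Psmd8 had the highest mean of the lid, with 35.5, 33.9 and 39.8 FPKM in NC, 39.6, 49.6 and 51.5 FPKM in APAP, and 51.1, 48.3 and 53.6 FPKM in AMSC. NC was lowest but reached APAP replicate 1, and APAP and AMSC overlapped. Psmd8 and Psmd3 were called higher in AMSC against NC, with log2 fold changes of 0.48 ± 0.11 (adjusted p = 0.0130) and 0.45 ± 0.11 (limma adjusted p = 0.0171). The call of Psmd8 was lost without NC replicate 1, NC replicate 2 or AMSC replicate 4 (0.43 to 0.54), that of Psmd3 without NC replicate 1 or AMSC replicate 4 (0.41 to 0.52), and both were lost with TPM (0.27 and 0.24). The other lid genes, Psmd6, Psmd7, Psmd12 and Psmd13, were not called in any comparison with all libraries and the deposited scaling. TPM called Psmd6 lower in APAP against NC, as it did 30.4% of all genes. Psmd7 was called higher in AMSC against NC without NC replicate 3, and Psmd8 in APAP against NC without APAP replicate 1. For 7 of the 8 lid genes all AMSC libraries lay above all APAP libraries, with Psmd8 the exception, against 14.6% of all genes. Psmd13 shares 342 exon bases (10.1%) with Sirt3 on the opposite strand and is uncertain for that reason.

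**Figure D2:**
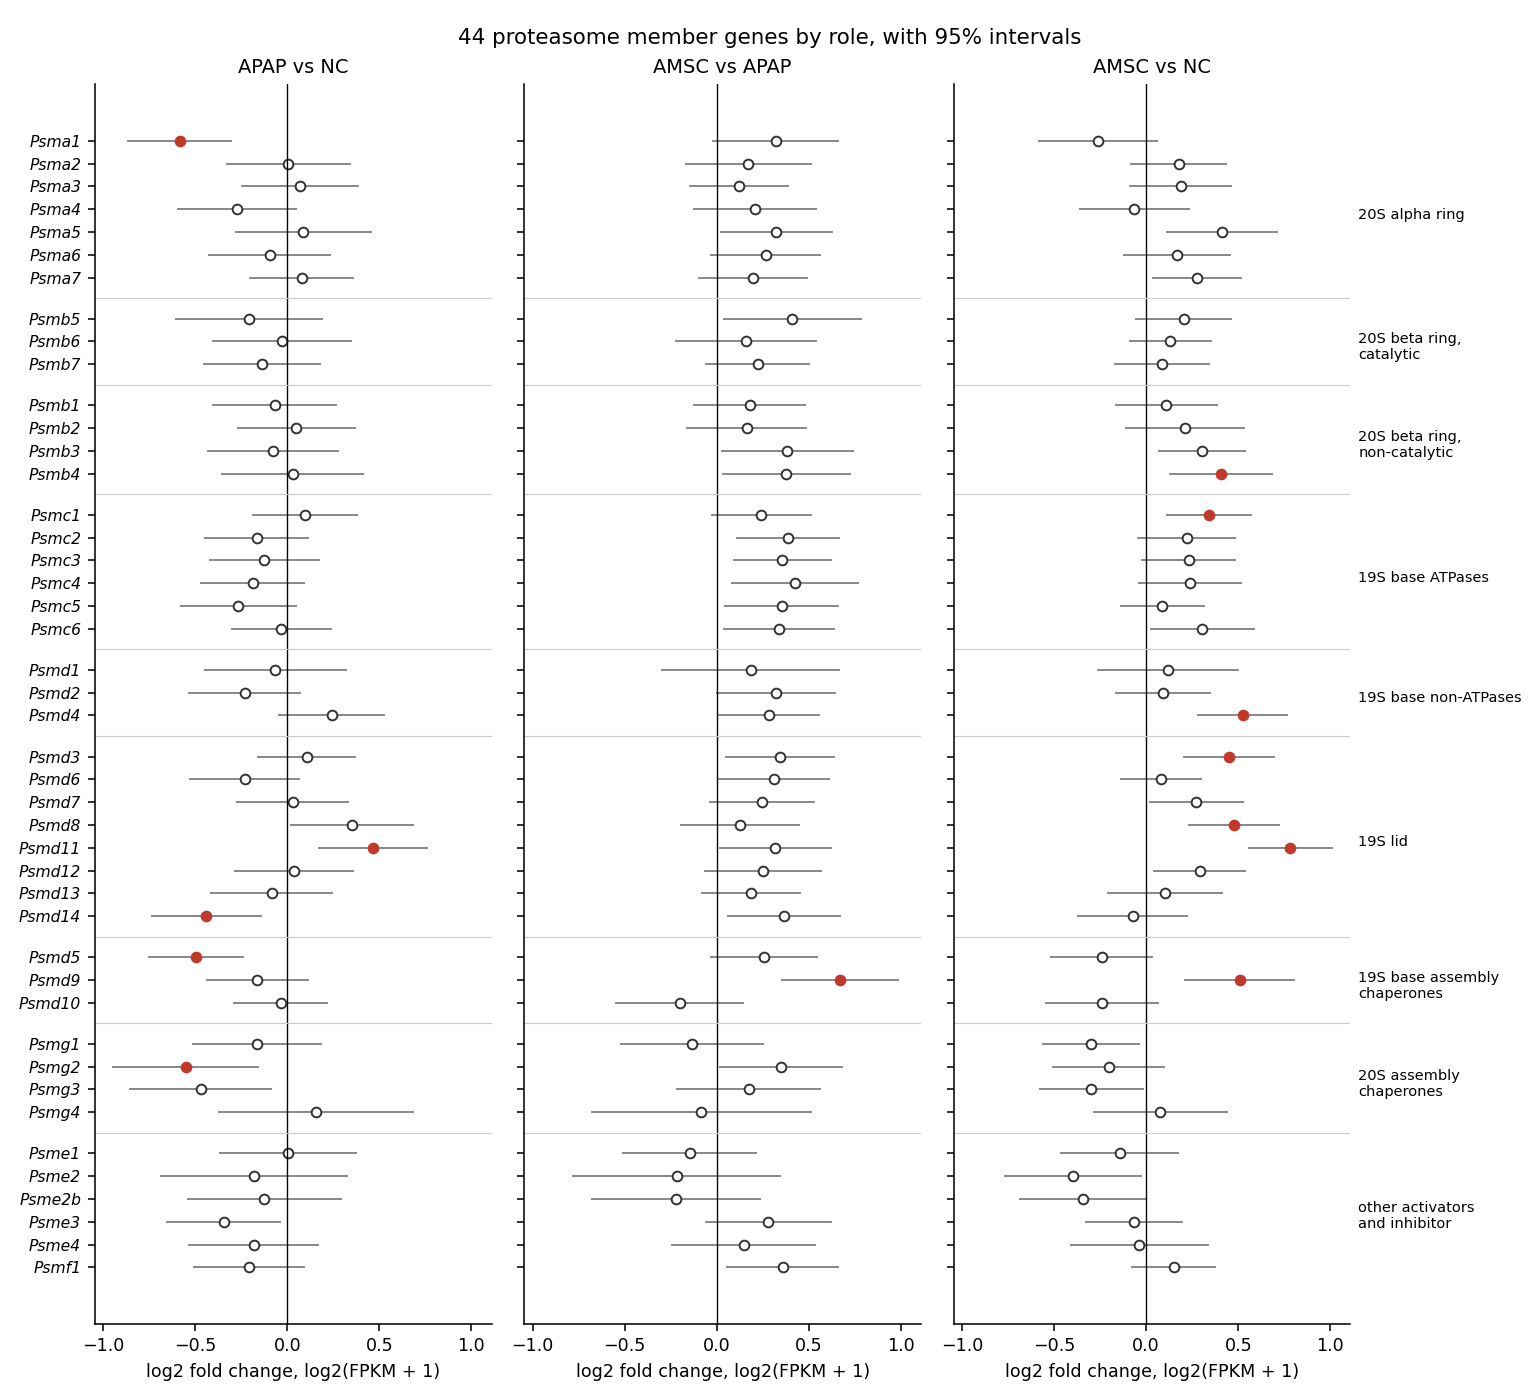
Log2 fold change of log2(FPKM + 1) for the 44 tested members, by role, in APAP against NC, AMSC against APAP and AMSC against NC, with 95% intervals of limma as bars and called genes as filled points (n = 3 libraries per group). In the middle plot all core and 19S genes lie to the right of 0, also with TPM, and Psmd9 is the called gene, while the right plot loses 6 of its 7 calls with TPM.

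The base is put together on the chaperones Psmd5, Psmd9 and Psmd10, which leave before the particle is complete. Psmd9 was at 5.37, 5.62 and 6.49 FPKM in NC, 4.80, 4.94 and 5.53 FPKM in APAP, and 8.46, 10.1 and 7.62 FPKM in AMSC. All AMSC libraries were above all others, and NC and APAP overlapped. Its log2 fold change was 0.67 ± 0.14 (SE) in AMSC against APAP (limma adjusted p = 0.0418) and 0.51 ± 0.13 in AMSC against NC (adjusted p = 0.0228). The first call was lost without each of the 6 libraries in turn, with values from 0.57 to 0.75, with all genes above 0 and with the replicate number as a block. The second was lost without NC replicate 1, NC replicate 2, AMSC replicate 2 or AMSC replicate 3, at 0.41 to 0.59, with all genes above 0, and with TPM, at 0.32. The gene model of Psmd9, chr5:123169413-123250131 (+ strand, GRCm38), spans Hpd on the opposite strand, which had a mean of 987 FPKM. The exons of the 2 genes share 0 bases in the GENCODE annotation, and the level of Psmd9 is uncertain where reads of Hpd could have been counted on it.

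Psmd5 was at 4.91, 5.22 and 5.79 FPKM in NC, 3.44, 3.37 and 3.57 FPKM in APAP, and 4.10, 5.01 and 3.92 FPKM in AMSC. APAP lay below both other groups in all libraries. It was called lower in APAP against NC (−0.50 ± 0.11, limma adjusted p = 0.0147), a call lost without NC replicate 2 among the libraries left out in turn, with values from −0.54 to −0.44. TPM called Psmd5 lower in AMSC against NC as well, and Psmd9 lower in APAP against NC, beside 22.4% and 30.4% of all genes. Psmd10 was not called in any comparison with the deposited scaling, was called lower in AMSC against NC with TPM, and was at 6.20 ± 0.0705 FPKM (SD, n = 3) in NC, 6.03 ± 0.485 in APAP and 5.16 ± 1.03 in AMSC.

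The alpha ring is built with the pairs Psmg1 with Psmg2 and Psmg3 with Psmg4. Psmg2 was at 11.1, 12.4 and 15.6 FPKM in NC, 7.88, 7.47 and 10.4 FPKM in APAP, and 11.3, 11.2 and 10.8 FPKM in AMSC. APAP was below both other groups, and AMSC overlapped NC. It was called lower in APAP against NC (−0.55 ± 0.17, limma adjusted p = 0.0484), and the call was lost without any library but APAP replicate 3, with values from −0.68 to −0.42, and was not made by voom. Psmg1, the highest of the chaperones, was at 15.7, 15.1 and 16.0 FPKM in NC, 11.8, 13.0 and 17.2 FPKM in APAP, and 13.2, 10.8 and 13.6 FPKM in AMSC. AMSC lay below NC in all libraries, and APAP overlapped both. TPM called Psmg1 and Psmg3 lower in APAP against NC and in AMSC against NC, beside 30.4% and 22.4% of all genes. Psmg3 had a log2 fold change of −0.47 ± 0.17 in APAP against NC with 51 to 155 reads per library, and its limma adjusted p was 0.0726, or 0.0320 with the replicate number as a block, which put NC replicate 3, numbered 1 in its title, with APAP replicate 3. Psmg3 was also called lower there with a single fit and without APAP replicate 3 (−0.63). It shares 280 exon bases (9.68%) with Gm26938 on the same strand, to which 0 reads were assigned, so its level is uncertain. In AMSC against APAP the 4 genes ranged from −0.14 to 0.35, and 2 of the 4 were negative. In AMSC against NC their median was −0.25, against 0.18 for the core that they assemble, and the difference between these medians was not tested.

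Psme1 and Psme2 form the activator that interferon induces, Psme3 forms a nuclear one, Psme4 a further one, and Psmf1 encodes an inhibitor. Psme1 had the highest mean of these, with 29.2, 28.4 and 36.5 FPKM in NC, 31.7, 26.7 and 36.1 FPKM in APAP, and 31.0, 24.5 and 29.3 FPKM in AMSC. The 3 groups overlapped. Psme1, Psme2 and Psme2b had negative values in AMSC against APAP, −0.15, −0.22 and −0.22, while Psme3, Psme4 and Psmf1 had positive ones, 0.28, 0.15 and 0.36, and 0 of the 6 were called by limma or voom in any comparison with the deposited scaling. TPM called Psme3 and Psmf1 lower in APAP against NC, and Psme2 and Psme2b lower in AMSC against NC, beside 30.4% and 22.4% of all genes. Psme2 was at 17.3 ± 1.76 FPKM (SD, n = 3) in NC, 15.5 ± 4.77 in APAP and 13.0 ± 2.77 in AMSC, and Psme2b, a near copy of it, at 30.1 ± 3.41, 27.9 ± 6.63 and 23.6 ± 4.28, so reads may be split between them and both levels are uncertain. Psmf1 was at 4.94, 4.70 and 4.42 FPKM in NC, 4.68, 3.53 and 3.63 FPKM in APAP, and 5.22, 5.22 and 5.47 FPKM in AMSC. Every AMSC library of Psmf1 was above all others.

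**Figure D3:**
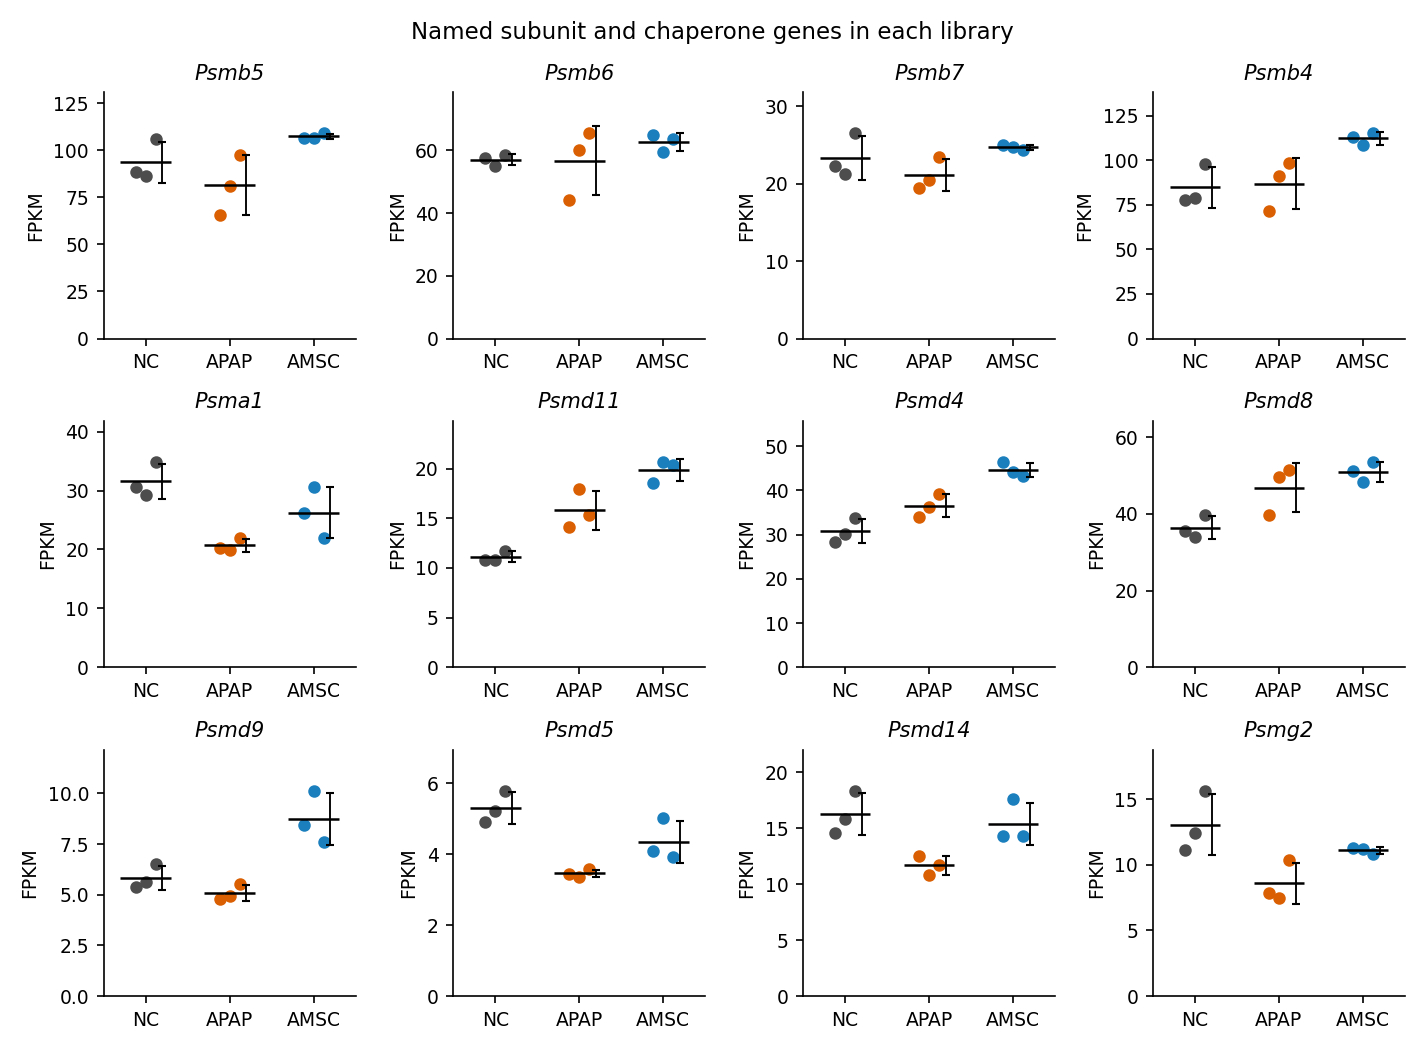
FPKM of 12 member genes in each library of NC, APAP and AMSC, with 1 point per library, the mean as a line and the SD (n = 3) as a bar, and each axis starting at 0. Psmd11 and Psmd4 show 3 groups without overlap, from NC (lowest) to AMSC (highest), and Psma1, Psmd5, Psmd14 and Psmg2 show APAP below NC, with the deposited scaling.

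Of the immunoproteasome list (Psmb8, Psmb9 and Psmb10, which replace the constitutive catalytic subunits, and Tap1, Tap2, Tapbp and Irf1), 1 of 7 was lower in APAP against NC, 2 of 7 in AMSC against APAP and 3 of 7 in AMSC against NC, against 13.1%, 2.14% and 11.9% of all genes, with 0 higher by limma in each. All 7 had negative values in both AMSC comparisons. Psmb9 was at 2.44, 3.45 and 3.22 FPKM in NC, 1.49, 1.90 and 1.91 FPKM in APAP, and 1.15, 0.778 and 0.873 FPKM in AMSC. The groups did not overlap, with NC highest and AMSC lowest. Its log2 fold change was −0.54 in APAP against NC (limma adjusted p = 0.0282) and −1.06 in AMSC against NC (adjusted p = 0.00135). The first of these calls was lost without NC replicate 2, NC replicate 3, APAP replicate 1 or APAP replicate 2 (−0.65 to −0.47), and the second was kept without each library. Irf1 and Tap1 were called lower in AMSC against APAP (−0.87 and −0.64) and in AMSC against NC (−0.38 and −0.75). The calls of Tap1 and Irf1 in AMSC against APAP, with adjusted p of 0.0484 and 0.0483 in limma, were lost without most single libraries: Tap1 without each of the 6 (−0.72 to −0.54), and Irf1 without any but APAP replicate 2 (−1.07 to −0.72). They were also lost with TPM (−0.56 and −0.78), with all genes above 0 and with the replicate number as a block, and that of Tap1 with a pseudocount of 0.1 and with quantile normalization. In AMSC against NC the call of Irf1 was lost without NC replicate 1, NC replicate 2, AMSC replicate 2 or AMSC replicate 4 (−0.42 to −0.36), and that of Tap1 was kept without each library. With the replicate number as a block both calls were lost there, and that of Irf1 was also lost with a single fit.

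Subunits and assembly factors outside the symbol rule gave the following. Of 7 genes tested, 1 was higher in APAP against NC, 1 in AMSC against APAP and 2 in AMSC against NC, against 12.8%, 1.64% and 14.1% of all genes, with 0 lower by limma. Adrm1, a ubiquitin receptor of the base, was at 23.5, 24.7 and 23.2 FPKM in NC, 23.2, 25.2 and 25.5 FPKM in APAP, and 35.2, 39.2 and 36.9 FPKM in AMSC. All AMSC libraries were above all others by more than the spread within any group. Its log2 fold change was 0.57 in AMSC against APAP (limma adjusted p = 0.0413), a call lost without each of the 6 libraries in turn (0.53 to 0.61), and 0.62 in AMSC against NC (adjusted p = 0.00290), kept without each. The call of Adrm1 in AMSC against APAP was also lost with all genes above 0. With the replicate number as a block its calls in both comparisons were lost. Akirin2, which brings the assembled proteasome into the nucleus, was called higher in APAP against NC (0.49, adjusted p = 0.0141) and in AMSC against NC (0.50, limma adjusted p = 0.0112), and with TPM both calls were lost (0.20 and 0.30). Its first call was also lost without NC replicate 1 or APAP replicate 2 (0.47 to 0.53), and its second with the replicate number as a block.

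Of the 12 genes that control subunit genes, 3 were higher and 0 lower in APAP against NC by limma (12.8% and 13.1% of all genes), 0 were called in AMSC against APAP by limma (1.64% and 2.14%), and 5 were higher and 1 lower in AMSC against NC (14.1% and 11.9%). Nfe2l1 was at 17.5, 14.8 and 12.7 FPKM in NC, 18.9, 11.9 and 12.7 FPKM in APAP, and 14.7, 14.3 and 19.3 FPKM in AMSC. The 3 groups overlapped, and the log2 fold changes were −0.06, 0.16 and 0.10 in APAP against NC, AMSC against APAP and AMSC against NC, or −0.35, 0.25 and −0.10 with TPM. With single libraries left out they ran from −0.25 to 0.06, from 0.03 to 0.35 and from −0.03 to 0.21. Its relative Nfe2l2 was at 10.9, 12.9 and 15.8 FPKM in NC, 17.5, 16.3 and 17.8 FPKM in APAP, and 12.4, 12.4 and 9.52 FPKM in AMSC. APAP lay above both other groups, and the values were 0.37, −0.56 and −0.19, without a call (limma adjusted p = 0.103, 0.0707 and 0.425). Without NC replicate 3 Nfe2l2 was called higher in APAP against NC (0.50, limma adjusted p = 0.0426), and with TPM its value there was 0.08. Its value in AMSC against NC ran from −0.31 to −0.06 with single libraries left out and was −0.38 with TPM. Maff and Mafk, small partners of these factors, and Bach1, which competes with them, rose by 6.29, 2.79 and 2.41 in APAP against NC and by 5.74, 1.91 and 2.01 in AMSC against NC. Syvn1, a ubiquitin ligase of the endoplasmic reticulum, was lower in AMSC against NC (−0.90, limma adjusted p = 0.0428), a call lost without NC replicate 1, NC replicate 2, AMSC replicate 2 or AMSC replicate 4 (−1.22 to −0.71). That call was also lost with all genes above 0 and with the replicate number as a block.

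Over all genes, 12.8% were called higher and 13.1% lower in APAP against NC, 1.64% and 2.14% in AMSC against APAP, and 14.1% and 11.9% in AMSC against NC. Of 4 tested genes for ubiquitin and its activating enzymes, 1 was higher in APAP against NC and 2 in AMSC against NC, with 0 lower and with 0 called in AMSC against APAP by limma. Ubb, which encodes a chain of ubiquitin units, rose by 1.39 in APAP against NC and by 1.51 in AMSC against NC, and Rps27a by 0.86 in the latter. The call of Rps27a was lost with all genes above 0 and with the replicate number as a block. Of the 20 genes for shuttles that carry ubiquitinated proteins, VCP partners and stress adaptors, 5 were higher and 1 lower in APAP against NC, 0 were called in AMSC against APAP by limma, and 9 were higher and 1 lower in AMSC against NC. Zfand5, Sqstm1, Dnajb1 and Hspa1a rose by 2.54, 2.39, 2.09 and 1.62 in APAP against NC, and Dnajb1, Zfand5, Sqstm1 and Zfand2a by 3.54, 2.73, 2.68 and 1.27 in AMSC against NC. Hspa1b of the same list was at 0.0086 in APAP against NC (limma adjusted p = 0.989). In that comparison the call of Hspa1a was lost with a single fit and that of Dnajb1 with all genes above 0. The call of Zfand2a in AMSC against NC was also lost with all genes above 0. Hspa1a was at 22.4 FPKM in AMSC replicate 3 and at 1.23 and 0.942 in the other AMSC libraries. Hspa1b (119 FPKM, against 10.4 and 7.07), Bag3 (49.9, against 19.3 and 23.5) and Zfand2a (15.9, against 7.41 and 7.87) were also highest there among the AMSC libraries. Zfand5 and Sqstm1 were highest in AMSC replicate 2. Ddi2 and Vcp stand on this list and on the list of control genes. Of 7 ubiquitin-conjugating enzymes, 1 (Ube2d2a, log2 fold change 0.30, limma adjusted p = 0.0498) was higher in AMSC against NC, and limma called 0 in the other comparisons. The call of Ube2d2a was lost without each of the 6 libraries in turn (0.28 to 0.33) and with TPM (0.10). It was also lost with quantile normalization, with a single fit, with the replicate number as a block and with voom.

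Markers of cell types were read in the same libraries, where 12.8% of all genes were called higher and 13.1% lower in APAP against NC, 1.64% and 2.14% in AMSC against APAP, and 14.1% and 11.9% in AMSC against NC. All 8 hepatocyte markers were above 1 FPKM, with Alb the most abundant at a mean of 35585 FPKM, and their sum was 44777, 42146 and 45402 in NC, 57029, 64320 and 65814 in APAP, and 53714, 53636 and 55926 in AMSC. By limma, 2 were higher (Alb and Apoa1) and 1 lower (Cyp2e1, −2.31) in APAP against NC, 1 higher in AMSC against APAP (Cyp2e1, 2.40) and 3 higher in AMSC against NC (Apoa1, Tat and Hnf4a). The call of Cyp2e1 in AMSC against APAP was lost without APAP replicate 3 or any single AMSC library (1.79 to 2.99 over all libraries left out), and with a pseudocount of 0.1, all genes above 0, a mean of at least 5 FPKM or quantile normalization. The call in APAP against NC held without each library and was lost with all genes above 0. The summed level of the 5 erythrocyte markers, with Hbb-bs the most abundant, was 137, 135 and 254 FPKM in NC, 1073, 306 and 1406 FPKM in APAP, and 312, 183 and 234 FPKM in AMSC. APAP was above NC in all libraries, 4 of the 5 were higher in APAP against NC, and 1 was lower in each AMSC comparison. Of 8 leukocyte markers 5 were tested, with Clec4f of Kupffer cells the most abundant, and the summed level of these 5 was 22.5, 23.1 and 45.8 FPKM in NC, 92.6, 41.0 and 76.3 FPKM in APAP, and 34.3, 24.9 and 23.1 FPKM in AMSC. NC replicate 3 and the APAP libraries were high, 3 were higher in APAP against NC, 1 was lower in AMSC against APAP and 2 were higher in AMSC against NC. Ly6g of neutrophils was at 0 in 7 of the 9 libraries, and Ptprc and Cd3e stayed under 1 FPKM. The 7 endothelial and stromal markers, with Dcn the most abundant, summed to 22.3, 28.3 and 42.4 FPKM in NC, 67.1, 27.3 and 48.8 FPKM in APAP, and 42.8, 27.8 and 32.8 FPKM in AMSC, and 1 was higher in APAP against NC and 1 lower in AMSC against NC. In AMSC against APAP all 5 erythrocyte, all 5 tested leukocyte and all 7 endothelial and stromal markers had negative values, with medians of −1.51, −1.32 and −0.31. All AMSC libraries lay below all APAP libraries for 2, 4 and 1 of them, against 12.4% of all genes. Of the 8 hepatocyte markers 4 were positive there and 4 negative. The part of these cell types in the levels of the proteasome genes was not tested.

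Promoters of 39 of the 47 members were in the RefSeq table of 300 bases around each start (250 before and 50 after, GRCm38.p6). Psma8, Psmb1, Psmb2, Psmb7, Psmc3, Psmd3, Psmd7 and Psmg2 were missing from it. The letters TGACNNNGC, the core of the element to which Nfe2l1 and Nfe2l2 bind, were searched on both strands. Their first letters are also those of the AP-1 and cAMP response elements. They were found in 6 of the 39 genes (15.4%), against 3781 of the 27025 genes of the table (13.99%). The 6 were Psmb5, Psmb6, Psmc6, Psmd9, Psmd12 and Psme4, and a match says only that the letters are there. Stretches of 100 bases before the RefSeq start that lie in no GENCODE exon are shown for the catalytic genes Psmb5 and Psmb6 and for Psmd9, called in both AMSC comparisons, with the match in capitals, and for Psmd11 and Psmd4, the largest rises in AMSC against NC, which had no match.
Psmb5 (chr14:54618023-54618122, − strand): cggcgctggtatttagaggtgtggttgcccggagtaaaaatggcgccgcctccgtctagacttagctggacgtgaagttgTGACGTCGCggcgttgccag
Psmb6 (chr11:70525257-70525356, + strand): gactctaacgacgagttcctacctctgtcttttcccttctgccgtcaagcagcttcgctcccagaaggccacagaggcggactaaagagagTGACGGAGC
Psmd9 (chr5:123228090-123228189, + strand): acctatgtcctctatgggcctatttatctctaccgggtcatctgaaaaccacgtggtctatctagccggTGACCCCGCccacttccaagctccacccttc
Psmd11 (chr11:80428515-80428614, + strand): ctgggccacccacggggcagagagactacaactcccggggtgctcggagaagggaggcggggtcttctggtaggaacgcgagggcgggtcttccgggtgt
Psmd4 (chr3:95042615-95042714, − strand): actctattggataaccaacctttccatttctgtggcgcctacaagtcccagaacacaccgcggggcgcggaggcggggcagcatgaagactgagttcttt
The matches start 47 bases before the RefSeq start in Psmb5, 9 before it in Psmb6 and 31 before it in Psmd9. The stretch of Psmb5 ends 28 bases before that start, and the stretch of Psmd9 lies inside its GENCODE gene model, in which 1 transcript starts farther upstream.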

How the data were processed

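The authors deposited 1 table of FPKM per gene for the 9 libraries, built on GRCm38 (mm10) per the submitters' processing notes, and used DESeq2 for their own tests. Aligner, counter and strand setting are not given in the sources used here. Multiplied by gene length, FPKM gave whole reads (within 0.1 of a whole number) for 100% of values, and the size factors of the median-of-ratios method equalled the library sizes behind FPKM up to a constant. Here log2(FPKM + 1) of the 9699 genes that averaged 1 FPKM or more was tested with limma 3.58.1 (R 4.3.3, trended prior), 2 groups of 3 libraries at a time, with Benjamini-Hochberg adjustment over all 9699. Replicates are biological by the study's methods, and p-values measure the spread between them.

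Alternatives were a pseudocount of 0.1, other filters (all genes above 0, a mean of at least 5 FPKM), quantile and TPM scaling, 1 fit to all 9 libraries, only genes that code for protein, voom on recovered reads, a replicate block and leaving out each library. Same-numbered APAP and NC libraries deviated together over all genes (correlations 0.21, 0.16 and 0.38), and those with different numbers ran from −0.34 to 0.09. These numbers, taken from the sample descriptions, were therefore treated as pairs in the block fit there, while the main fit used no pairs. AMSC replicate 2 reached 0.41 with APAP replicate 3 and 0.38 with NC replicate 3 without a shared number. Such a correlation thus does not establish a pair, and the labels name none. The title of NC replicate 3 has the number 1, so its pair is uncertain. The test was checked on simulated data. Positions of 46 of the 47 members equalled GENCODE vM21. Python 3.11.15 made the tables (numpy 2.4.6, pandas 2.3.3) and the plots (matplotlib 3.10.9). Values in every library are given for the catalytic subunits, the 3 largest rises and falls among called members, and the most abundant member of the core, the base, the lid, the assembly chaperones and the activators. Up to 4 called genes are named per pathway list, and Nfe2l1 and Nfe2l2 always. The values in every library of Psma5, Psmf1, Psmd14, Psmb9 and Adrm1 were chosen for display after they were seen. Of the pathway, immunoproteasome and marker lists, 3 genes are not reported here. The members and lists were chosen with earlier results of these data known.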

Additional observations from a re-analysis of the deposited data

How the results depend on the processing

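TPM scaling changed most. It gave 0 members higher and 20 lower in APAP against NC (7.73% and 30.4% of all genes), medians there of −0.35 for the core and −0.35 for the 19S subunits, a 19S median of 0.41 in AMSC against APAP, and in AMSC against NC 1 member higher and 7 lower (8.74% and 22.4% of all genes) with medians of −0.021 for the core, a changed sign, and 0.029 for the 19S subunits. In the same comparison and scaling Psmb5, Psmb6, Psmb7 and Nfe2l1 changed sign (−0.0071, −0.077, −0.12 and −0.10). This scaling moved the median of all genes as well. Testing all genes above 0 gave 0 members higher and 2 lower in APAP against NC (3.73% and 4.01% of all genes) and 0 higher in AMSC against APAP (0.0926%), and in AMSC against NC it lost Psmd9 and Psmb4 and gained Psmc3ip, which has at most 10 reads per library, with more genes in the adjustment. Quantile normalization gave 5 members higher (Psmc1 and Psmb4 were lost) and 1 lower (Psmg1) in AMSC against NC, against 12.6% and 14.7% of all genes, and the cause was not tested.

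With the replicate number as a block, Psmg3 was gained as lower in APAP against NC and no other member call changed there. That block pairs NC replicate 3, numbered 1 in its title, with APAP replicate 3. In the AMSC comparisons same-numbered libraries did not deviate together (correlations −0.10 and −0.29 with APAP, −0.20 and −0.31 with NC), so they share only a number. The block then rested on 2 shared numbers and gave 0 members higher in both (1.52% and 5.61% of all genes), and Psmb6 was at −0.016 in AMSC against APAP.

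Leaving out each library in turn gave 0 to 2 members higher and 1 to 4 lower in APAP against NC (7.40% to 14.7% and 6.55% to 13.7% of all genes), 0 to 0 higher in AMSC against APAP (0.423% to 1.35%) and 2 to 9 higher in AMSC against NC (9.62% to 13.0%). The 19S median in APAP against NC ranged from −0.097 to 0.010, changing sign without NC replicate 3, and the core median there from −0.15 to 0.059, changing sign without NC replicate 3 or APAP replicate 1. Psmb6 ranged from −0.14 to 0.14 in APAP against NC and from −0.0052 to 0.27 in AMSC against APAP, both changing sign without APAP replicate 1, and Nfe2l1 from −0.25 to 0.059 in APAP against NC and from −0.033 to 0.21 in AMSC against NC. In AMSC against APAP the core median stayed between 0.16 and 0.29 and the 19S median between 0.29 and 0.33. Depth limits Psma8, Psmb11 and Psmc3ip, with at most 14 reads per library.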

Other observations

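The 4 pseudogenes whose symbols match the rule were left out with all other genes that are not protein-coding. Levels within the base and lid ran from 11.4 FPKM for Psmd1 to 65.6 FPKM for Psmc1, a 5.76-fold range of means. These means depend on the gene length used, 7265 bases for Psmd1 and 1933 for Psmc1. The chaperones had lower FPKM than the particles they assemble, with means from 2.21 FPKM (Psmg3) to 14.05 FPKM (Psmg1) for the core and from 4.37 FPKM (Psmd5) to 6.55 FPKM (Psmd9) for the base. This too depends on the gene length, which ran from 555 bases (Psmg4) to 7248 bases (Psmd9) among the chaperones. Psmd9 had 444 to 974 reads per library, and Psmd14 of the lid, at 2820 bases, had 379 to 891.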
